A study of Mus musculus with 4 samples.

Results

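Kcnn4 encodes KCa3.1, a potassium channel that opens when calcium rises in the cell. The peaks of 2 wild-type ChIP-seq lists at this gene were taken by position, as every peak with its summit inside Kcnn4 or within 100 kb of it on GRCm38. They were 5 of 1106 anti-Eos peaks and 4 of 469 anti-Helios peaks. By the closest end of a protein-coding gene, 6 of these 9 peaks belonged to Kcnn4, 2 to the neighbouring gene Smg9 and 1 to Zfp94. The gene was chosen by its numbers of anti-Eos and anti-Helios summits in these same lists, and the peaks were selected on their position. The counts and heights below are therefore a description, and no test was made on them.

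Chromatin immunoprecipitation with sequencing (ChIP-seq) recovers the DNA that a protein occupies with an antibody against that protein. The study made 4 libraries from mouse splenic Treg cells, the T cells that hold other immune cells in check. They were WT anti-Eos, WT anti-Helios, Eos KO anti-Eos and Eos KO anti-Helios, with 1 library in each group. Eos, encoded by Ikzf4, and Helios, encoded by Ikzf2, are related transcription factors of the Ikaros group, which bind DNA through zinc fingers. WT mice carried no named allele. Eos KO mice carried floxed Eos and Foxp3-Cre, so that the deletion was limited to cells that express Foxp3, and the labels give neither age nor sex. All cells came from a CD4+CD25+ isolation kit, without a further sort in the labels, were fixed for 10 min in 1% formaldehyde, and were incubated with beads that carried 6 µg of antibody. The Eos KO libraries were not analysed here, so nothing below compares genotypes. Which library served as control for each list is not given in the sources, so whether a fold is over input DNA or over an Eos KO library is not known. Peaks carry no expression values, so the Treg label could not be checked against marker genes.

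In T cells the channel works together with calcium entry. Calcium that enters through Orai channels, which open when Stim proteins sense empty stores, binds calmodulin on the KCa3.1 channel and opens it. Potassium then leaves the cell, which keeps the membrane negative and lets calcium entry and the calcineurin and NFAT pathway go on. The gene is known to be induced when T cells are activated, and in human T cells an AP-1 site and an Ikaros family site have been described in its promoter.

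Kcnn4 (gene ID 16534) occupies chromosome 7 from 24369826 to 24385212, 15387 bp on the plus strand, and has 5 RefSeq transcripts. The RefSeq promoter table places its start at 24370263, which is 437 bp downstream of the first annotated base of the gene. Distances from the start of Kcnn4 below refer to that base. The gene is separated from Lypd5 by 15.6 kb on its upstream side and from Smg9 by 12.3 kb on its downstream side. Exons and introns could not be assigned, because the gene table used here lists only the ends of genes.

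The RefSeq promoter windows (GRCm38.p6, 250 bases before to 50 bases after the start) of Kcnn4 and of the genes nearest to the remaining peaks are shown, since a peak reached into each of them. All 3 genes were found in the table. Capitals mark the bases that lie within a peak of either list, and each window runs 5′ to 3′ along the strand of its gene.
Kcnn4 (chr7:24370013-24370312, plus strand): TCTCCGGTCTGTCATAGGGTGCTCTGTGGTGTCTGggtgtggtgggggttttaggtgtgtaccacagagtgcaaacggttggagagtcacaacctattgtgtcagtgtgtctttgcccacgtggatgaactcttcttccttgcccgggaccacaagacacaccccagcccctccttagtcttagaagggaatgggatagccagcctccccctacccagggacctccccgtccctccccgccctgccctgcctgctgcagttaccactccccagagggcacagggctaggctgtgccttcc
Smg9 (chr7:24399378-24399677, plus strand): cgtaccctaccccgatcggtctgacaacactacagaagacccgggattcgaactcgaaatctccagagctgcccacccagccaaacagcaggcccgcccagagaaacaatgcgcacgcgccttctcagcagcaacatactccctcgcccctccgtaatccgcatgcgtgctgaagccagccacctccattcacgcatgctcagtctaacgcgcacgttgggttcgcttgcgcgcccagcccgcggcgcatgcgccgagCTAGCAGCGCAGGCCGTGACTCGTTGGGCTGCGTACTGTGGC
Zfp94 (chr7:24316617-24316916, minus strand): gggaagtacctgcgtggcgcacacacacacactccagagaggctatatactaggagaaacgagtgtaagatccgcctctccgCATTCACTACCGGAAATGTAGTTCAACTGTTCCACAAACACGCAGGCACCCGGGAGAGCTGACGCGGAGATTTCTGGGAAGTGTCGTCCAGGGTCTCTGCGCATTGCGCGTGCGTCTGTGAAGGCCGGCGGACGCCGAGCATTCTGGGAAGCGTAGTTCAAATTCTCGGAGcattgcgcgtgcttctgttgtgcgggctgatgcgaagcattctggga
In the Kcnn4 window the capitals are the last 35 bases of the anti-Eos peak, and 0 bases belong to the anti-Helios peak, which ends further upstream. In the Smg9 window 42 bases, from just after the start onwards, belong to the anti-Helios peak. The Zfp94 window holds the whole anti-Helios peak of 171 bases.

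**Figure D1:**
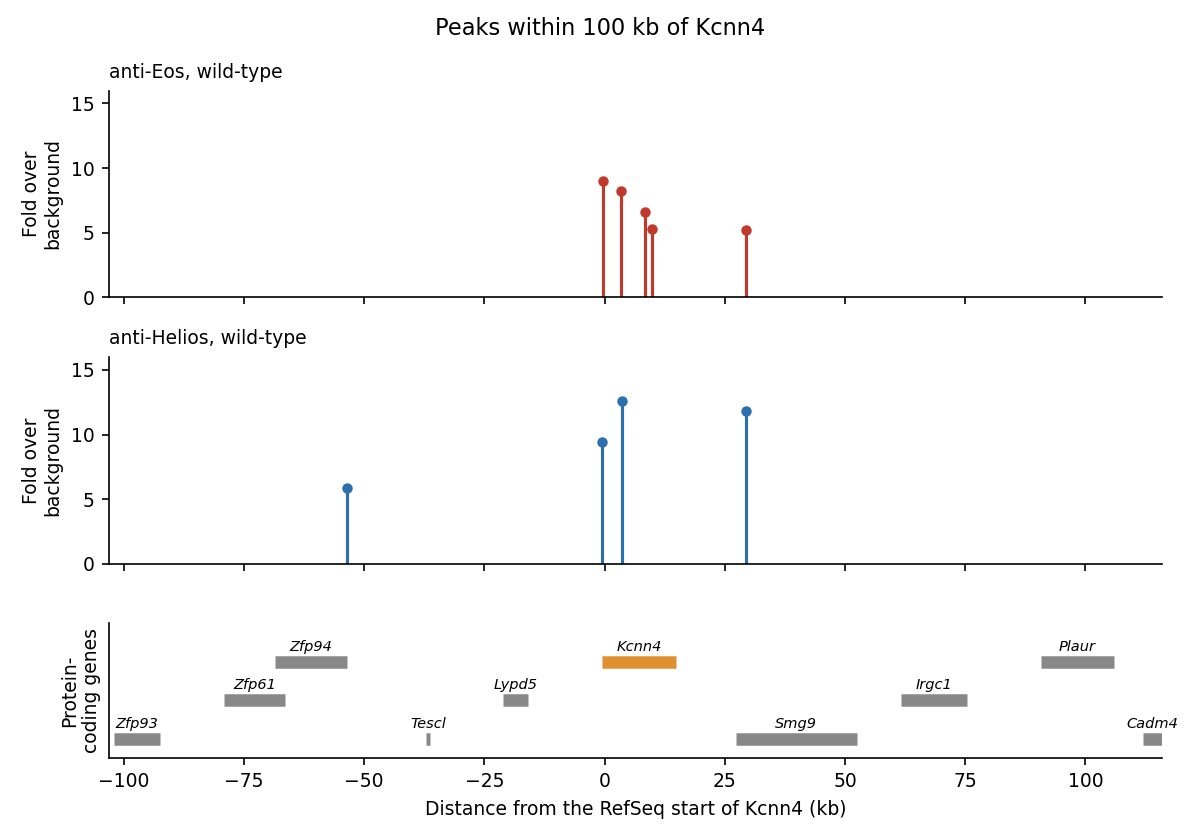
Fold over background of each peak against the distance of its summit from the RefSeq start of Kcnn4 in kb, for anti-Eos (top) and anti-Helios (middle), with protein-coding genes as bars (bottom). The 4 anti-Eos peaks of Kcnn4 lie in the upstream part and the middle of the gene. Of its 2 anti-Helios peaks, 1 has its summit 28 bp outside the upstream end and the other 3.54 kb downstream of the start. A place at Smg9 has a peak of each antibody, and the place at Zfp94 has an anti-Helios peak.

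At the upstream end of Kcnn4 each antibody gave a peak. The anti-Eos peak (chromosome 7, 24369901 to 24370047, 147 bp) had its summit at 24369979, 153 bp inside the annotated span and 284 bp upstream of the RefSeq start. Its fold over background, which is the authors' value per peak here and below, was 8.99, with a -log10 q of 11.1. The anti-Helios peak (24369722 to 24369964, 243 bp) had its summit at 24369798, 28 bp outside the annotated span and 465 bp upstream of that start, with a fold of 9.41 and a -log10 q of 11.8. The peaks shared 64 bp, which is 43.5% of the anti-Eos and 26.3% of the anti-Helios peak, and their summits lay 181 bp apart. The anti-Helios summit was thus outside the anti-Eos peak, and the anti-Eos summit was outside the anti-Helios peak. Summits within 1 kb of a RefSeq start of a protein-coding gene made up 35.5% of the anti-Eos list and 48.0% of the anti-Helios list, so a peak in this position is common in both.

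Within the gene, 3.49 kb downstream of the start, the antibodies gave a second overlapping pair. The anti-Eos peak (24373619 to 24373864) had a fold of 8.23 and a -log10 q of 9.20. The anti-Helios peak (24373717 to 24373904) had a fold of 12.6 and a -log10 q of 19.6, the highest of the 4 anti-Helios peaks around Kcnn4. They shared 148 bp, 60.2% of the anti-Eos and 78.7% of the anti-Helios peak, with summits 59 bp apart. The closest summits of the antibodies around Kcnn4 were therefore inside the gene and not at its start.

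Further into the gene lay 2 anti-Eos peaks without an overlapping anti-Helios peak. The first (24378548 to 24378688) had its summit 8.38 kb downstream of the start, a fold of 6.57 and a -log10 q of 5.77. The other (24380072 to 24380201) had its summit 9.83 kb downstream, a fold of 5.27 and a -log10 q of 3.41. The nearest anti-Helios summit was 4.83 kb and 6.28 kb away. These were the lowest of the 4 anti-Eos peaks assigned to Kcnn4, so fold fell in the order of the peaks from the start towards the middle of the gene (8.99, 8.23, 6.57 and 5.27). The last anti-Eos summit was 5.12 kb short of the downstream end of Kcnn4, and no listed summit of either antibody lay in that remaining stretch. The weakest peak of the whole anti-Eos list had a -log10 q of 2.08, and that of the anti-Helios list 2.24, and signal below these values would not be listed.

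**Figure D2:**
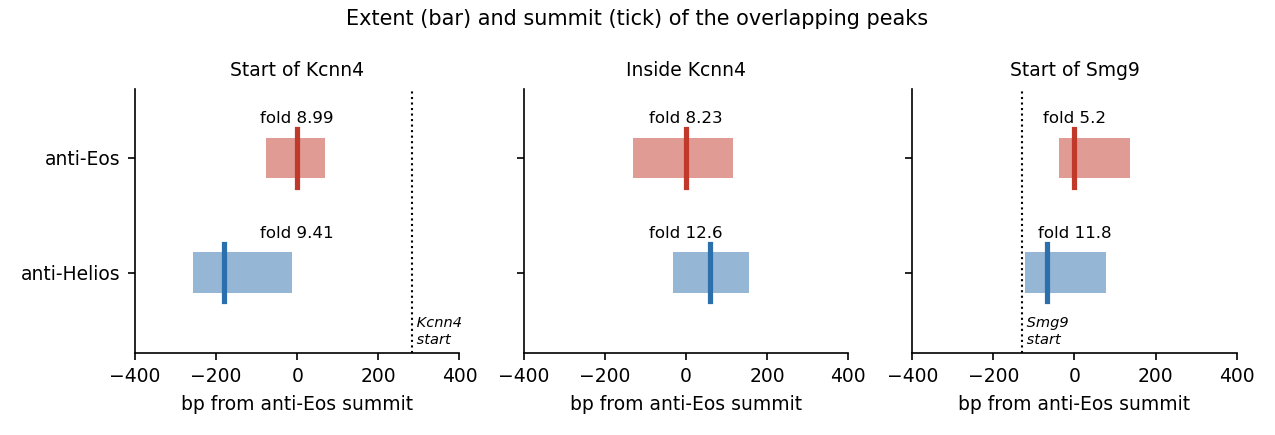
Extent (bar) and summit (tick) of the overlapping anti-Eos and anti-Helios peaks, in bp from the anti-Eos summit, at the start of Kcnn4, inside Kcnn4 and at the start of Smg9, with RefSeq starts dotted. At the start of Kcnn4 the summits are 181 bp apart and the overlap is partial, while at the other places they are 59 and 69 bp apart.

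The last overlapping pair lay outside Kcnn4, 14.5 kb beyond its downstream end, at Smg9, which encodes a factor of nonsense-mediated mRNA decay. The anti-Eos peak (24399719 to 24399893) had its summit 130 bp downstream of the RefSeq start of Smg9, a fold of 5.20 and a -log10 q of 4.37. The anti-Helios peak (24399636 to 24399835) had its summit 61 bp downstream of that start, a fold of 11.8 and a -log10 q of 14.9. They shared 117 bp and their summits were 69 bp apart. Since this place sits at the start of another gene, it is part of the window by distance alone. The same holds for the anti-Helios peak at Zfp94, a zinc finger gene (24316664 to 24316834), with its summit 53.0 kb upstream of the Kcnn4 span and 130 bp upstream of the RefSeq start of Zfp94. It had a fold of 5.87 and a -log10 q of 3.41, and the nearest anti-Eos summit was 53.2 kb away, at Kcnn4.

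In all, 3 of the 5 anti-Eos peaks overlapped an anti-Helios peak by at least 1 bp, against 27.9% of the whole anti-Eos list. Of the 4 anti-Helios peaks 3 overlapped an anti-Eos peak, against 65.9% of the whole anti-Helios list. With so few peaks these shares only describe the locus. The window was otherwise empty: Lypd5, Tescl, Irgc1, Plaur, Cadm4, Zfp61 and Zfp93 had no summit nearest to them there. Beyond 100 kb, the next summits downstream were those near Rps19, 499 kb from Kcnn4 in both lists, with a fold of 9.26 in the anti-Eos list and 17.5 in the anti-Helios list. Upstream, the next were 4430 kb away for anti-Eos (fold 8.75, nearest gene Igsf23) and 4550 kb away for anti-Helios (fold 4.05, nearest gene Bcl3). The outermost summit within the limit was that at Zfp94, so no peak lay close to the 100 kb border on either side.

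Few fragments entered the fold and p-value of each peak. This number is an inference from the fold and p-value that the authors deposited, and need not be every fragment that overlaps the peak. It is given with exact Poisson intervals of 95% that cover counting error only. For anti-Eos at Kcnn4 it was 17 fragments (9.90 to 27.2) at the start and 15 (8.40 to 24.7) at 3.49 kb. It was 12 (6.20 to 21.0) at 8.38 kb and 10 (4.80 to 18.4) at 9.83 kb. All 4 intervals overlapped. Each count carries wide counting error, and whether fold differs along the gene was not tested. For anti-Helios it was 22 fragments (13.8 to 33.3) at the start of Kcnn4 and 27 (17.8 to 39.3) at 3.54 kb, which overlapped as well. At Smg9 it was 14 (7.65 to 23.5) for anti-Eos and 21 (13.0 to 32.1) for anti-Helios, and at Zfp94 12 (6.20 to 21.0). The median was 14 fragments over the anti-Eos list and 18 over the anti-Helios list, so the peaks of Kcnn4 were of ordinary size in the anti-Eos list and above the middle in the anti-Helios list.

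**Figure D3:**
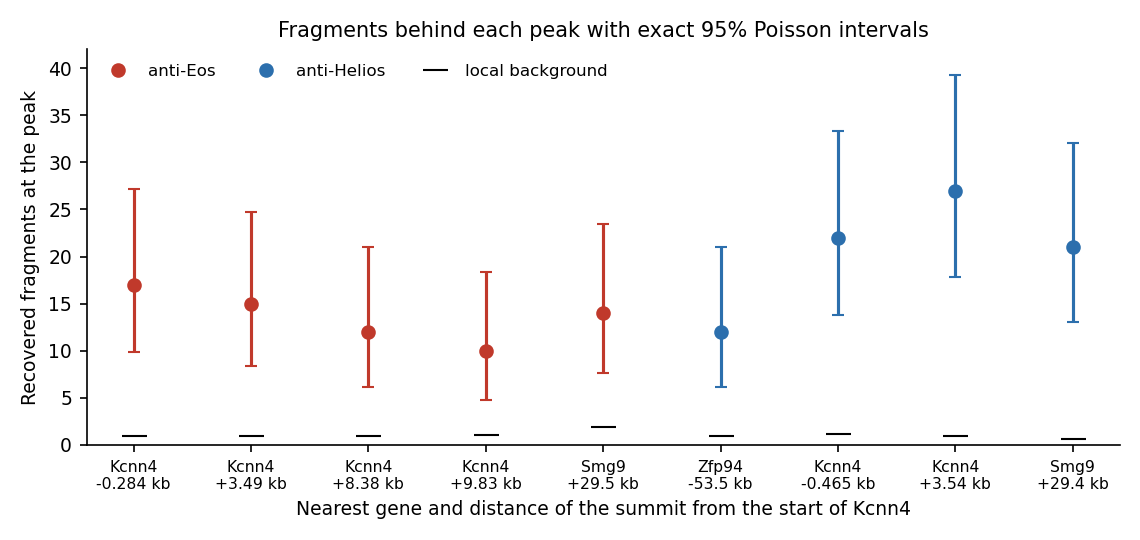
Recovered number of fragments at each of the 9 peaks (points) with exact 95% Poisson intervals (bars) and the local background in scaled control fragments (dashes), by nearest gene and distance of the summit from the start of Kcnn4. Within each antibody all intervals overlap, and the backgrounds lie between 0.672 and 1.89.

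The local background was close to 1 scaled control fragment at all 4 anti-Eos peaks of Kcnn4 (0.943 to 1.09) and was 1.20 and 1.00 at the anti-Helios peaks of the gene. At Smg9 it was 1.89 in the anti-Eos list and 0.672 in the anti-Helios list. The anti-Eos fold at Smg9 (5.20) was thus lower than that at 8.38 kb in Kcnn4 (6.57) although its fragment count was higher, 14 against 12. Folds of the lists were set against backgrounds that differed in this way, and their sizes are not compared between the antibodies.

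Within the anti-Eos list the peak at the start of Kcnn4 ranked 310 of 1106 by fold, and that at 3.49 kb ranked 398. The peaks at 8.38 and 9.83 kb ranked 734 and 965, and that at Smg9 974. Within the anti-Helios list the peak inside Kcnn4 ranked 26 of 469 and that at Smg9 34. The peak at the start of Kcnn4 ranked 113 and that at Zfp94 379. The median fold was 7.31 over all anti-Eos peaks and 7.66 over all anti-Helios peaks. The anti-Eos peaks of Kcnn4 thus lay on both sides of the median of their list (median of the 4, 7.40), while both anti-Helios peaks of the gene lay above it.

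**Figure D4:**
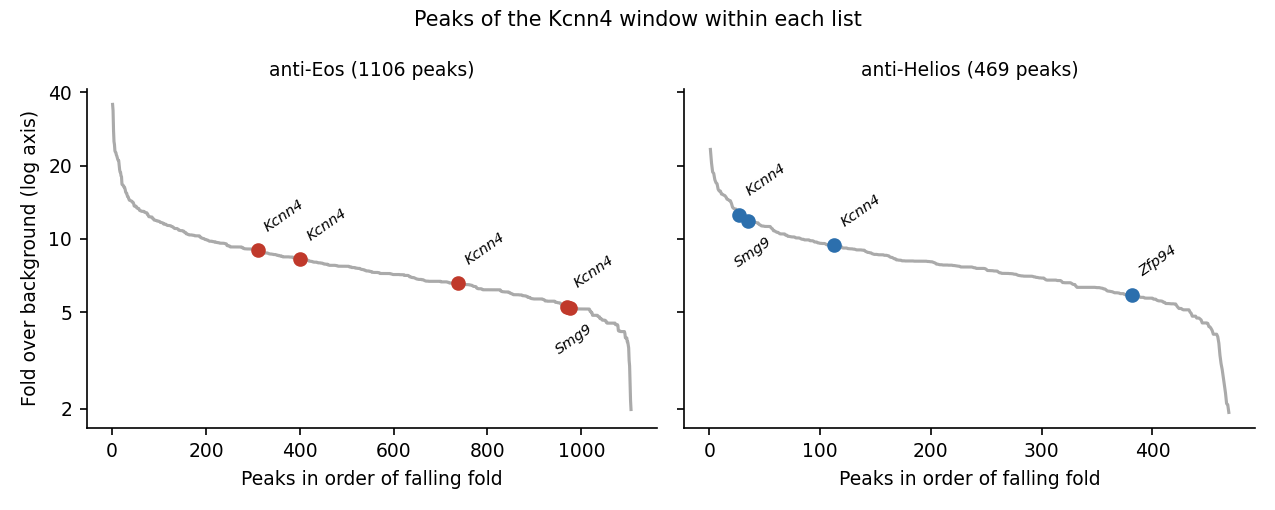
Fold over background (log axis) of all peaks of each list in falling order (grey), with the peaks within 100 kb of Kcnn4 as coloured points named by their nearest gene. The anti-Eos peaks of Kcnn4 spread from rank 310 to rank 965 of 1106, and those of anti-Helios are at ranks 26 and 113 of 469.

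Kcnn4 was among the few genes with several summits. Of 21883 protein-coding genes, 4.04% had at least 1 anti-Eos summit assigned by the nearest annotated end within 100 kb, and 1.91% had at least 1 anti-Helios summit. At least 4 anti-Eos summits, the number at Kcnn4, were assigned to 5 genes (0.0228%), and at least 2 anti-Helios summits to 26 genes (0.119%). The other 4 genes of the first group were Zfp36l2 with 6 anti-Eos summits, Septin9 with 5, and Emsy and Sfi1 with 4 each. Both limits together were met by Kcnn4, Zfp36l2 and Sfi1, 3 genes in all, with 2, 3 and 8 anti-Helios summits. The 8 at Sfi1 were the most of any gene. The highest anti-Eos fold at Sfi1 was 5.95, below the median of 7.31 over the anti-Eos list, against 8.99 at Kcnn4 and 10.5 at Zfp36l2. The place of Kcnn4 in these counts follows from the reason for which the gene was picked.

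All 4 anti-Eos summits assigned to Kcnn4 were inside the gene, as were all 5 of Septin9. At least 4 anti-Eos summits inside the annotated span of the gene itself were found in Kcnn4 and in Septin9, or 0.00914% of genes. The limit of 4 is the number in Kcnn4 itself, so that share is a description only. The first of the 4 lay 153 bp inside the span of Kcnn4 but 284 bp upstream of its RefSeq start. Counted from that start, Kcnn4 would fall short of 4, and its density below also includes this summit. Septin9 held 5 in a span of 162665 bp, or 0.307 per 10 kb, against 2.60 per 10 kb in Kcnn4. The anti-Eos summits of Kcnn4 were spaced by 3.77, 4.89 and 1.45 kb and spanned 10.1 kb. Of the 1044 runs of 4 consecutive anti-Eos summits on a chromosome, this was the fourth shortest, after runs at Ppp1ca and Tbc1d10c (6.76 kb), Zfp36l2 (7.57 kb) and Septin9 (8.42 kb). The median run spanned 4100 kb. Counting every summit within 100 kb of a gene, 0.215% of genes had at least the 5 anti-Eos summits found around Kcnn4, and 0.0640% had at least its 4 anti-Helios summits. The highest such counts were 9 and 8, and the medians were 0.

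**Figure D5:**
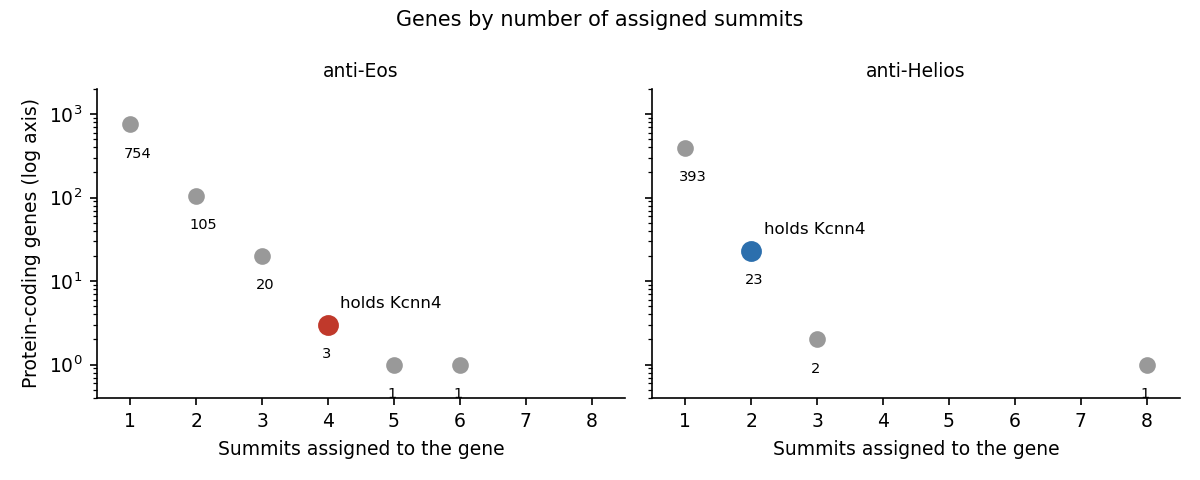
Number of protein-coding genes (log axis) against the number of summits assigned to the gene by its nearest end within 100 kb, for genes with at least 1 summit. Kcnn4 is 1 of 3 genes with 4 anti-Eos summits and 1 of 23 genes with 2 anti-Helios summits.

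The genes most like Kcnn4 were taken by the sum of the differences in assigned anti-Eos and anti-Helios summits over the 2 libraries, with ties settled by the highest anti-Eos fold. No other gene had 4 and 2. A sum of 1 was reached by 6 genes, of which the first 5 were Tspoap1, B4galnt1, Speer4c, Emsy and Tmem154. Tspoap1, B4galnt1, Speer4c and Tmem154 had 3 anti-Eos and 2 anti-Helios summits each, and Emsy had 4 and 1. Their highest anti-Eos folds ran from 7.05 at Emsy to 11.5 at Tmem154, against 8.99 at Kcnn4. Tmem154 had an overlapping pair whose anti-Eos summit lay 84 bp from the RefSeq start and whose anti-Helios summit lay 94 bp from it, and another pair 15.6 and 15.8 kb from that start. Its remaining anti-Eos summit lay 10559 bp from the gene, outside it. B4galnt1 had an overlapping pair 35 bp (anti-Eos) and 117 bp (anti-Helios) inside its nearest annotated end, and another pair 634 and 664 bp inside it. It also had an unpaired anti-Eos summit 2076 bp outside the gene. At Tspoap1 all 3 anti-Eos summits were outside the gene, between 1499 and 6453 bp from its nearest annotated end. Of them 2 overlapped an anti-Helios peak. Speer4c belongs to a multicopy family, so its reads may be shared with near-identical copies.

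Letters of known binding motifs were then looked up on both strands of the promoter windows. The motifs were chosen with the sequences in view, and a match is a description of letters, not a binding site. The Kcnn4 window held 1 match to GGGAA, the core that Ikaros family proteins recognise, at 64 to 60 bases before the start and outside the capitals. Such a match was present in 63.0% of 21262 promoter windows of protein-coding genes, in 74.9% of the 359 windows that an anti-Eos peak reached and in 78.0% of the 209 that an anti-Helios peak reached. A match like that of Kcnn4 is thus found in most windows.

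The same window held 4 matches to TGTGGT, the core of RUNX factors, which start 226, 213, 190 and 102 bases before the start of Kcnn4. The first of them lies within the part covered by the anti-Eos peak. At least 1 match was present in 15.0% of all windows and in 15.9% of those reached by an anti-Eos peak, while at least 4 were present in 6 windows (0.0282%). The limit of 4 is the number in Kcnn4 itself, and the motif was chosen with this window in view. That share is therefore a description only. The Kcnn4 window also held 1 match to the E-box CACGTG (7.84% of windows) and 1 to the GC box GGGCGG (46.2%). It held 0 matches to the AP-1 letters TGANTCA (6.99% of windows), the ETS letters CCGGAAG (11.6%) and TATAAA (12.6%). Of its bases 59.7% were G or C, against a median of 56.3% over all windows. The window covers little of the peaks at this end of the gene, and no sequence of the peaks further upstream or inside Kcnn4 was used here.

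The Zfp94 window, which holds its whole anti-Helios peak, had 3 matches to GGGAA, of which 2 were within the peak, at 93 and 23 bases before the start. The Smg9 window had 0 matches to GGGAA and 0 to TGTGGT, although both antibodies gave a peak near that start.

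Other genes of the same channel system were then looked up in the lists. Of 50 further genes in 5 groups, 7 (14.0%) had an anti-Eos summit and 4 (8.0%) an anti-Helios summit assigned, against 4.04% and 1.91% of all protein-coding genes. The groups were chosen with earlier results of these data known, so these shares are a description, and the difference was not tested. The median number of assigned summits was 0 in every group and over all genes, for both antibodies. In the family of calcium-activated potassium channels, Kcnn4 was the member with assigned summits, and Kcnn1, Kcnn2, Kcnn3 and Kcnma1 had 0 of either antibody. A summit more than 100 kb from every gene end was not assigned, even if it lay inside a gene. Summits deep inside a very long gene would thus be missing from these counts. The 5 genes whose products are known to regulate the KCa3.1 channel (Pik3c2b, Nme2, Phpt1, Mtmr6 and Trim27) also had 0.

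Among the other 11 ion channel genes of T cells, 2 had anti-Eos summits. Lrrc8a, which encodes a subunit of volume-regulated anion channels, had an anti-Eos summit 247 bp from its start (fold 6.65) and an overlapping pair inside the gene with an anti-Eos fold of 6.17 and an anti-Helios fold of 6.32. Kcna3, which encodes the voltage-gated potassium channel of T cells, had an anti-Eos summit 69.8 kb away from it (fold 6.48) and no anti-Helios summit. Of the potassium channel genes looked up here, Kcnn4 alone had an assigned summit inside the gene. Other potassium channel genes were not looked up.

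Of 16 genes for calcium entry and release, 4 had anti-Eos and 2 had anti-Helios summits. Stim2, which encodes a calcium sensor of the endoplasmic reticulum, had an overlapping pair outside the gene, 3.23 and 2.93 kb from its RefSeq start. The anti-Eos fold was 5.75 and the anti-Helios fold 5.65. Stim1, which encodes the other such sensor, had an anti-Eos summit inside the gene with a fold of 3.92 and a -log10 q of 2.45, near the lowest listed. Itpr1, a channel gene of calcium stores, had an anti-Eos summit inside it (fold 9.26), and Atp2b1, a calcium pump gene, had one 36.6 kb away (fold 8.30). Plcg1, which encodes the phospholipase that acts after T cell receptor signalling, had an anti-Helios summit inside it (fold 6.10). Orai1, Orai2 and Orai3 had 0.

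Of 14 genes for calmodulin, calcineurin and NFAT, Nfat5 had an anti-Eos summit 111 bp outside its end (fold 10.7) and Rcan3, which encodes a calcineurin regulator, had an anti-Helios summit 2.69 kb outside its end (fold 7.82). The other 12 had 0 summits. Kcnn4 alone among all 51 genes had more than 1 overlapping pair of peaks. Because Kcnn4 was picked by its numbers of summits, this is a description only. Outside these lists, Tspoap1, B4galnt1 and Tmem154 also had more than 1 such pair. With summits required to lie within 100 bp, the pair at the start of Kcnn4 no longer counted.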

How the data were processed

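The 2 wild-type peak lists were used, with 1 library per group, and no replicate error could be had. The tools named, per the submitters' processing notes, are BWA 0.7.1, cutadapt 4.4, SAMtools 1.17, Picard and deepTools 3.5.1, with the builds mm10 and GRCm38.p6. No source used here gives the peak caller, its settings or the controls. Each deposited line held the authors' fold (a ratio over background), -log10 p-value, -log10 q-value, an integer score (10 times the -log10 q, rounded down) and the positions of the peak and its summit.

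Each summit went to the gene, among the protein-coding genes of GRCm38.p6, whose annotated end was closest, up to 100 kb. An annotated end here is either boundary of the gene, upstream or downstream. Overlap meant at least 1 bp. Fragments and local background were recovered by solving a MACS-type formula, in which 1 is added to scaled fragments and to background before their ratio is taken, and p is the Poisson upper tail. A whole number of fragments gave both deposited values for 100% of peaks within a relative tolerance of 0.001, with a scaling of 1 (anti-Eos) and 0.895 (anti-Helios). Library depth is unknown. The solver was tested on data simulated with the same formula, which checks the solving but not whether the peak caller used that formula. Python 3.11.15, pandas 2.3.3 and scipy 1.17.1 were used. Alternatives were other windows, assignments and overlaps and a -log10 q of at least 5.

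The members and gene lists were chosen with earlier results of these data known. Named genes were those nearest to a summit around Kcnn4, its neighbours, listed genes with a summit, and the 5 most like Kcnn4. Sequences are from RefSeq.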

Additional observations from a re-analysis of the deposited data

How the results depend on the processing

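Of 19 alternative settings over 6 counts, 15 left the count within 1.5 times of the reported one, and 4 did not. The 4 anti-Eos and 2 anti-Helios summits of Kcnn4 were assigned to it whether the gene body or the nearest end came first and with genes of every biotype. When only peaks with a -log10 q of 5 or more were kept, the anti-Eos summits of Kcnn4 were 3 and those within 100 kb were 3 in place of 5. A window of 10 kb held 2 anti-Helios summits in place of 4, since it left out Smg9 and Zfp94. Genes with at least as many anti-Eos summits as Kcnn4 numbered 2 with assignment within 10 kb and 8 within 500 kb, against 5. Overlap pairs around Kcnn4 were 3, and 2 when 0.5 of the shorter peak had to be shared or summits had to lie within 100 bp, which ended the pair at the start of Kcnn4. They were also 2 when both lists were held to a -log10 q of 5 or more, which ended the pair at Smg9. No paired analysis was possible because each group has 1 library, and for the same reason no library could be left out. Recovered counts of 10 to 27 fragments limit the precision of every fold around Kcnn4.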
